A study of Mus musculus with 6 samples.

Results

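The 9 genes described here mark the inhibitory interneurons of the cerebellar cortex: Gad1, Gad2, Slc32a1, Slc6a5, Npy, Sst, Kit, Pax2 and Nxph1. They were chosen by symbol, and all 9 were found among the 24411 genes of the count tables. RNA had been sequenced from developing mouse cerebellum at postnatal day 18. A first group of 3 libraries came from mice in which the remote enhancer of Atoh7 was knocked out (KO), and a second group of 3 came from wild-type mice (WT). The enhancer controls a transcription factor of retinal ganglion cell genesis, and the cerebellum was profiled in the same mutant. The labels give no strain, sex or parentage and name no agent for either group. They call the replicates independent without naming the animals, so p-values measure the spread between these libraries.

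Molecular layer interneurons (basket and stellate cells) release GABA onto Purkinje cells and onto each other, and Golgi cells release GABA and glycine onto granule cells. GABA is made from glutamate by the decarboxylases GAD67 (Gad1) and GAD65 (Gad2), and both GABA and glycine are loaded into vesicles by 1 transporter, VGAT (Slc32a1). The plasma membrane transporter GlyT2 (Slc6a5) supplies glycinergic endings. Precursors of these interneurons express the transcription factor Pax2, basket and stellate cells carry the receptor tyrosine kinase Kit, and Golgi cells can contain the peptides somatostatin and neuropeptide Y. Purkinje cells also use GABA, so Gad1, Gad2 and Slc32a1 do not belong to interneurons alone.

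Start regions are shown for the 2 decarboxylase genes and the 2 peptide genes. These pairs were picked because 1 member of each passed the test described below and the other did not. The difference within a pair was not tested. Each start region runs 5′ to 3′ over 300 bases, from 250 before the RefSeq start to 50 after it (GRCm38.p6). Capitals mark matches on either strand to the cyclic AMP response element TGACGTCA, the TATA box TATAAA, the GC box GGGCGG or the E box CAGCTG; no motif letters overlapped in these 4 regions. They lie at chr2:22622077-22622376 on the plus strand (Gad2), chr2:70561879-70562178 on the plus strand (Gad1), chr6:49822460-49822759 on the plus strand (Npy) and chr16:23890795-23891094 on the minus strand (Sst).
Gad2: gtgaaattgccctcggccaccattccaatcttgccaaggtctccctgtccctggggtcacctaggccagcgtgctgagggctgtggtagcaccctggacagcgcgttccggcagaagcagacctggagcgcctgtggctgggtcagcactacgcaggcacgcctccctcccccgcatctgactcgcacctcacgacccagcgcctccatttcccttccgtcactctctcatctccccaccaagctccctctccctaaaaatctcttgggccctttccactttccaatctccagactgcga
Gad1: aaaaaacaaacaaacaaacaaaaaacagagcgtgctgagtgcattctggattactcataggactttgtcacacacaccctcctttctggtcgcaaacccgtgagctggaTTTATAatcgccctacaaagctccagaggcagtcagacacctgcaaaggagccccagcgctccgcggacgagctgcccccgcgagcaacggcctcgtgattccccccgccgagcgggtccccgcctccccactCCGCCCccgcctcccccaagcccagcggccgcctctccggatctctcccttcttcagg
Npy: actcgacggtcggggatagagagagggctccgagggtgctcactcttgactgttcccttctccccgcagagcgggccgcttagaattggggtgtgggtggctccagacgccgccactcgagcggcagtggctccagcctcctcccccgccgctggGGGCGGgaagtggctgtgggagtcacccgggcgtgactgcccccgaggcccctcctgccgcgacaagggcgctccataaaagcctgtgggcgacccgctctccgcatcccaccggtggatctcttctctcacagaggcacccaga
Sst: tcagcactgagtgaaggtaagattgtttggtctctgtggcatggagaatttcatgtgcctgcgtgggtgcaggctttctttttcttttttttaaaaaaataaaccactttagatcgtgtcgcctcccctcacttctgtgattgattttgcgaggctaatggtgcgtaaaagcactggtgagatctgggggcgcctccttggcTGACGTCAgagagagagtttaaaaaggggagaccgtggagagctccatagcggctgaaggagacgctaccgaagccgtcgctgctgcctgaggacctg

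Sst carried the cyclic AMP response element, for which its promoter is a textbook case, at 48 bases before the start. The element was found in 1.79% of all 32851 RefSeq start regions of this length. Gad1 had a TATA box match on the reverse strand and a GC box, Npy had a GC box, and Gad2 had no match to any of the 4 motifs. TATA box matches were found in 13.6%, GC boxes in 35.7% and E boxes in 16.3% of all regions. These matches are descriptions of the letters and do not show that a factor binds.

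Some properties of the libraries touch every value below. Total reads numbered 49226625 to 51947647 in KO and 46160747 to 51920156 in WT, and reads assigned to genes numbered 32556977 to 34438262 in KO and 16340132 to 28170761 in WT. Reads that fell outside genes were 17.3% ± 0.291 of each KO library and 34.3% ± 3.59 of each WT library (SD, n = 3 each), without overlap. In WT replicate 3 the ribosomal RNA precursor Rn45s took 63.2% of gene reads, which left 6015125 reads on other genes. Reads of Xist, an RNA of female cells, numbered 31134 in WT replicate 1 and at most 10 in each other library. Sex thus appears unbalanced between the groups, and it was not in the model. Atoh7 itself had 45 to 92 reads in KO and 7 to 72 in WT, which does not check the genotype, since the deleted element lies outside the gene. The sample labels name retina as the tissue, whereas the design names cerebellum. The 9 cerebellar markers summed to 1729 to 2206 CPM (reads per 1000000 gene reads, with TMM-scaled library sizes) in KO and 1792 to 2291 CPM in WT, and the 9 retinal markers to 3.01 to 3.40 CPM in KO and 2.94 to 3.95 CPM in WT, with Crx at 0 reads.

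Some of the 9 genes were modestly higher in KO cerebellum and others did not pass the test. Of the 9 genes, 4 rose (Npy, Slc6a5, Gad2 and Slc32a1), 0 fell and 5 did not pass. The test was the quasi-likelihood test of edgeR, with p-values adjusted by Benjamini and Hochberg's method over all 15519 genes tested and a threshold of 0.05. All p-values below are of this kind unless another tool is named. None fell by DESeq2 or limma-voom either, and at an unadjusted p under 0.05 only Kit was lower by edgeR. Over all tested genes 6.43% passed as higher and 10.2% as lower, 16.7% in all. The median log2 fold change (KO over WT) was 0.24 for the 9 genes and −0.01 for all tested genes. The number that passed was 0 without KO replicate 1, 1 (Npy) without KO replicate 2 and 0 without KO replicate 3, where 4, 6 and 5 were higher at an unadjusted p under 0.05. It was 3 without WT replicate 1 (Gad2, Slc32a1 and Npy), 2 without WT replicate 2 (Slc32a1 and Slc6a5) and 4 without WT replicate 3 (Gad2, Slc32a1, Npy and Pax2). The read assignment of each library (log2 of reads outside genes over reads of all genes but Rn45s) was also entered as a covariate. With it, 0 passed by edgeR and 3 were higher at an unadjusted p under 0.05. This covariate was higher in every WT library than in any KO library, and WT replicate 3 lay furthest out. Such a fit cannot tell genotype and read assignment apart. In bulk tissue, fewer cells of a type and less RNA per cell cannot be told apart.

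Gad1 (chromosome 2, 70553072 to 70602014, plus strand, GRCm38) encodes the decarboxylase that makes most GABA of the cell body and axon. It had 338, 315 and 313 CPM in KO replicates 1 to 3 and 294, 287 and 263 CPM in WT replicates 1 to 3. Every KO library lay above every WT library, by a gap smaller than the range within either group. The log2 fold change was 0.19 (SE 0.07) and did not pass (adjusted p = 0.0702, edgeR). It passed by limma-voom with sample quality weights (0.17, adjusted p = 0.0421), and adjusted p ranged from 0.0421 to 0.643 over all alternatives. The antisense gene Gad1os overlaps Gad1, as Gm14205 does Slc32a1. Gm20395 and 1700039E22Rik overlap Pax2 on its opposite strand. Reads of the opposite strand were kept apart from these genes. On the same strand, Mir3967 and Gm23636 overlap Gad2, Mir6405 overlaps Pax2 and Gm35736 overlaps Nxph1, which strand does not separate.

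Gad2 (chromosome 2, 22622205 to 22693874, plus strand) encodes the decarboxylase tied to synaptic vesicles. It had 180.4, 205 and 179.7 CPM in the KO libraries and 161, 127 and 154 CPM in the WT libraries. KO replicate 2 was the highest and WT replicate 2 the lowest, and the groups did not overlap. Gad2 rose 1.28 fold (log2 0.36, SE 0.09; adjusted p = 0.0296, edgeR). The call was lost without KO replicate 1 (0.39), KO replicate 2 (0.29), KO replicate 3 (0.39) or WT replicate 2 (0.26), with adjusted p from 0.0681 to 0.127. Reads of Gad1 per read of Gad2 overlapped, at 1.53 to 1.87 in KO and 1.71 to 2.27 in WT. The difference between Gad1 and Gad2 was not tested.

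Slc32a1 (chromosome 2, 158610767 to 158615748, plus strand), the vesicular transporter shared by GABA and glycine, had 156, 155 and 151 CPM in the KO libraries and 130.5, 133 and 99.8 CPM in the WT libraries. The KO libraries were close together, and WT replicate 3 was well below the other WT libraries. It rose 1.26 fold (log2 0.34, SE 0.10; adjusted p = 0.0383, edgeR). Without WT replicate 3 it was at 0.23 (adjusted p = 0.00684). The call was lost without KO replicate 1 (0.34), 2 (0.34) or 3 (0.36), with adjusted p from 0.111 to 0.119, and with the covariate the value was 0.01.

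Slc6a5 (chromosome 7, 49910146 to 49963856, plus strand), the neuronal glycine transporter, is the member that marks glycinergic cells. It had 91.0, 94.7 and 99.8 CPM in the KO libraries and 63.8, 84.0 and 64.2 CPM in the WT libraries. All KO libraries were above all WT libraries, and WT replicate 2 was nearest to KO. It rose 1.34 fold (log2 0.42, SE 0.10; adjusted p = 0.0222, edgeR). The call was lost without KO replicate 1 (0.46), KO replicate 2 (0.43), KO replicate 3 (0.39), WT replicate 1 (0.34) or WT replicate 3 (0.37), with adjusted p from 0.0506 to 0.098, and with the covariate (0.26, adjusted p = 0.418). Glycinergic neurons of the adjoining brainstem use this transporter too. Of 11 brainstem genes, 2 rose and 0 fell: the choline transporter Slc5a7 (0.39, SE 0.08) and the acetylcholine-synthesising enzyme Chat (0.61, SE 0.15). By comparison, 6.43% of all tested genes passed as higher and 16.7% in either direction. The serotonin genes Slc6a4 (−0.27, SE 0.87) and Tph2 (−0.22, SE 0.56), abundant on this list, had negative values and did not pass. Both were highest in KO replicate 2 and WT replicate 1. The summed brainstem list was at 88.5 to 122 CPM in KO and 88.2 to 109 CPM in WT, and its part in the rise of Slc6a5 was not tested.

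**Figure D1:**
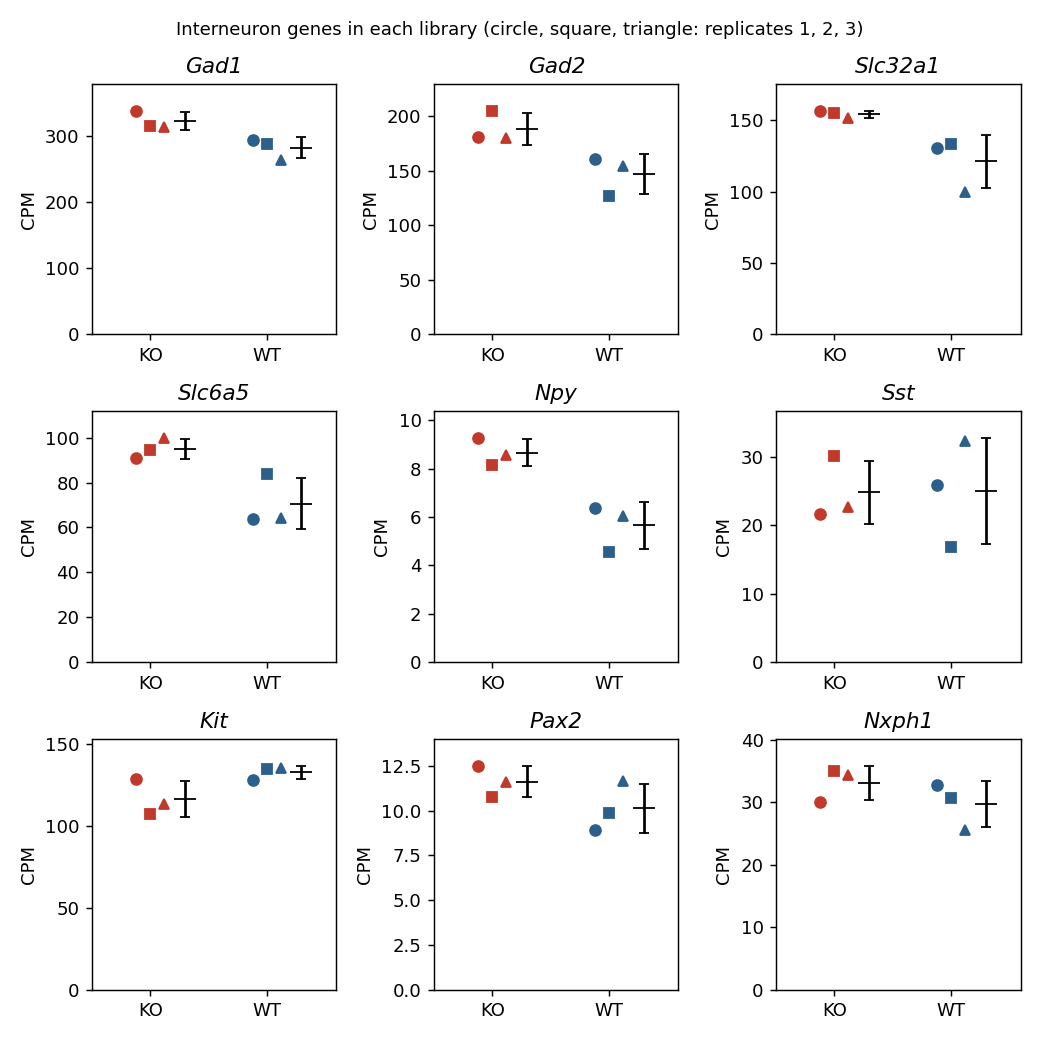
CPM (y axis from 0) of each gene in the 3 KO (left, red) and 3 WT (right, blue) libraries; circles, squares and triangles are replicates 1, 2 and 3, and the black bar beside them is the mean ± SD. KO libraries lie above all WT libraries for Gad1, Gad2, Slc32a1, Slc6a5 and Npy, and the groups overlap for Sst, Kit, Pax2 and Nxph1.

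The peptide genes differed in their values. Npy (chromosome 6, 49822710 to 49829507, plus strand), the precursor of neuropeptide Y, had 9.26, 8.15 and 8.56 CPM in the KO libraries and 6.36, 4.55 and 6.04 CPM in the WT libraries. The groups did not overlap, and WT replicate 2 was the lowest library. Npy rose 1.55 fold, the largest change among the 9 genes (log2 0.64, SE 0.14; adjusted p = 0.0141, edgeR). These values rest on 357, 323 and 355 reads in KO and 219, 147 and 39 reads in WT. The call was lost without KO replicate 1 (0.59), KO replicate 3 (0.65) or WT replicate 2 (0.47), with adjusted p from 0.0602 to 0.0634, and with the covariate (0.75, adjusted p = 0.0732).

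Sst (chromosome 16, 23889573 to 23890958, minus strand), the precursor of somatostatin, had 21.6, 30.1 and 22.7 CPM in the KO libraries and 25.8, 16.9 and 32.2 CPM in the WT libraries. The libraries of both genotypes were mixed in order, and the highest and the lowest were both WT. The log2 fold change was 0.05 (SE 0.25; adjusted p = 0.915, edgeR), and the SE was the widest among the 9 genes. Its sign turned without KO replicate 2 (−0.12) and without WT replicate 2 (−0.20). The difference between Npy and Sst was not tested.

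Kit (chromosome 5, 75574916 to 75656722, plus strand), the receptor of stem cell factor on basket and stellate cells, was the only member with a negative value. It had 128.1, 107 and 113 CPM in the KO libraries and 127.8, 135 and 135 CPM in the WT libraries. KO replicate 1 reached the level of WT replicate 1, so the groups overlapped. The log2 fold change was −0.19 (SE 0.08) and did not pass (adjusted p = 0.111, edgeR), with adjusted p from 0.0548 to 0.423 and a negative value in all 14 alternatives. Melanocytes and mast cells also carry Kit. Their 5 markers each summed to 1.97 to 3.04 CPM in KO and 1.92 to 2.48 CPM in WT for melanocytes and to 0.606 to 0.675 CPM in KO and 0.433 to 1.13 CPM in WT for mast cells, whose receptor gene Fcer1a had 0 reads.

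Nxph1 (chromosome 6, 8948431 to 9249032, plus strand) encodes neurexophilin 1, a secreted ligand of alpha-neurexins found in a subset of cerebellar interneurons. It had 30.0, 35.0 and 34.3 CPM in the KO libraries and 32.7, 30.6 and 25.6 CPM in the WT libraries. The groups overlapped, and the difference was 0.13 on the log2 scale (SE 0.10; adjusted p = 0.37, edgeR). It was 0.067 without WT replicate 3, 0.21 without KO replicate 1, 0.21 without WT replicate 1 and −0.10 with the covariate, and it passed under no alternative.

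Pax2 (chromosome 19, 44756045 to 44837871, plus strand), the transcription factor of interneuron precursors that persists in Golgi cells, had 12.5, 10.8 and 11.6 CPM in the KO libraries and 8.89, 9.84 and 11.6 CPM in the WT libraries. WT replicate 3 lay within the KO range. The log2 fold change of 0.24 (SE 0.11) did not pass (adjusted p = 0.167, edgeR). Without WT replicate 3 it was 0.32 and passed (adjusted p = 0.038), and it passed by limma-voom with sample quality weights (0.28, adjusted p = 0.041). The value was 0.16 without WT replicate 1 (adjusted p = 0.451) and 0.19 without KO replicate 1 (adjusted p = 0.389), and with the covariate it was 0.48 (adjusted p = 0.0842).

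The groups did not overlap for 5 of the 9 genes, all with KO above WT, where 18.9% of all tested genes had KO above WT, 20.5% had KO below WT and 39.4% did not overlap in either direction. Summed over the 9 genes, the level was 954 ± 17.2 CPM in KO and 823 ± 29.6 CPM in WT (SD, n = 3 each). Their share of gene reads other than Rn45s, which uses no TMM scaling, was 0.116%, 0.117% and 0.114% in KO replicates 1 to 3 and 0.107%, 0.103% and 0.085% in WT replicates 1 to 3. The summed level is mostly that of Gad1, Gad2, Slc32a1 and Kit.

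**Figure D2:**
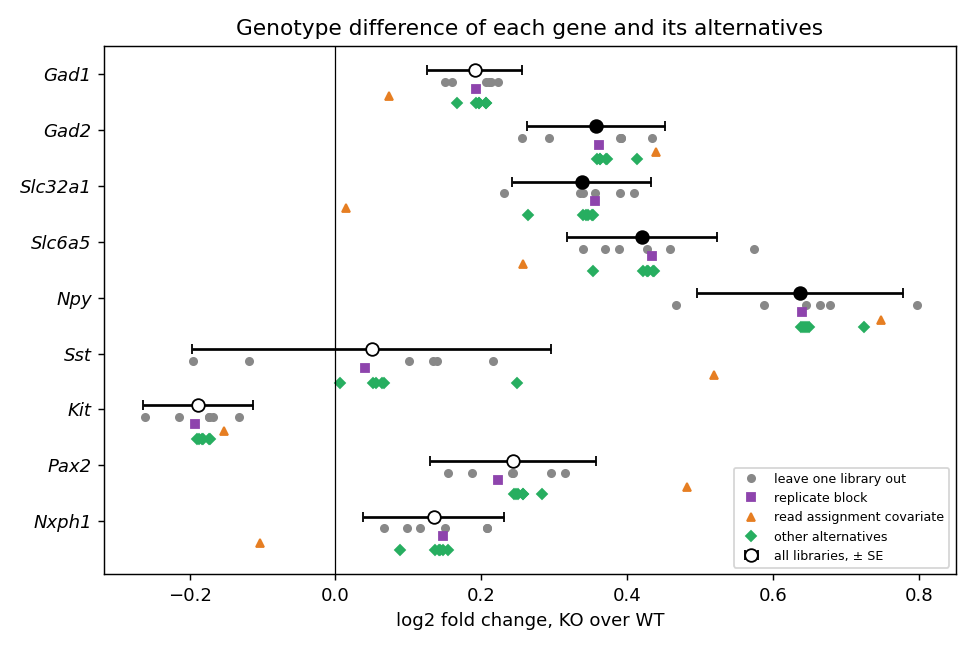
Log2 fold change (x axis, KO over WT) of each gene with all libraries (large circles ± SE, filled where the gene passed) and under the alternatives below it. Npy is highest at 0.64 and Kit alone is negative at −0.19; the covariate values (orange triangles) lie far from the others for Slc32a1 (0.01), Sst (0.52), Pax2 (0.48) and Nxph1 (−0.10).

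Per length of exon, Slc32a1, Gad1, Sst and Gad2 were the most abundant of the 9 genes in both genotypes. Slc32a1 was at 55.1 ± 0.879 CPM per kb in KO and 43.3 ± 6.60 in WT, Gad1 at 42.1 ± 1.81 in KO and 36.9 ± 2.10 in WT, and Gad2 at 32.1 ± 2.46 in KO and 25.1 ± 3.12 in WT (SD, n = 3 each). Sst had 34.4 ± 6.40 CPM per kb in KO and 34.6 ± 10.7 in WT, and its libraries overlapped those of both decarboxylases in each genotype. The libraries of Slc32a1 and Gad1 overlapped in WT and not in KO. Below a gap came Npy at 15.3 ± 0.989 CPM per kb in KO and 9.98 ± 1.71 in WT, Slc6a5 at 13.2 ± 0.618 in KO and 9.81 ± 1.602 in WT, and Kit at 13.0 ± 1.21 in KO and 14.9 ± 0.453 in WT. Kit stood above Npy and Slc6a5 in every WT library, whereas in KO Npy stood above both, over the highest Kit library by a narrow margin, and Slc6a5 and Kit overlapped. Nxph1 followed at 6.96 ± 0.573 CPM per kb in KO and 6.23 ± 0.773 in WT, and Pax2 was the lowest at 2.15 ± 0.162 in KO and 1.87 ± 0.257 in WT. The annotation behind the counts is not given in the sources used here, so lengths from GENCODE are approximate.

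**Figure D3:**
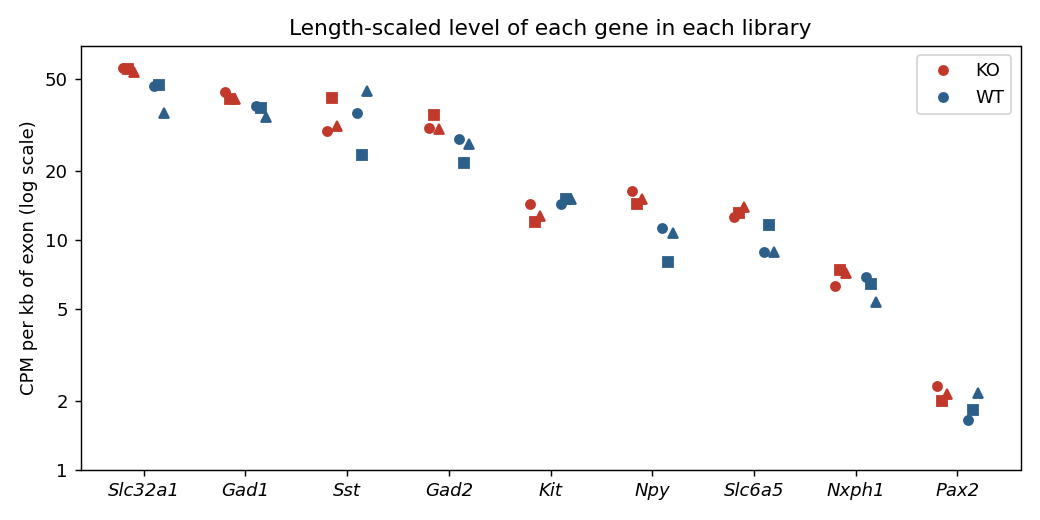
Level per kb of exon (CPM per kb, log axis) of each gene in each library, KO in red on the left and WT in blue on the right, with circles, squares and triangles for replicates 1, 2 and 3. Slc32a1 leads on average at 55.1 in KO and 43.3 in WT, and Pax2 is lowest at 2.15 in KO and 1.87 in WT.

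Ratios of reads between genes within a library need no scaling. Of 12 such ratios, picked after the values were seen, 10 overlapped between genotypes. The other 2 did not, both with Kit as the numerator and KO below WT. Among all tested genes taken singly, 39.4% did not overlap. Reads of Kit per read of Gad1 were 0.379, 0.341 and 0.361 in KO replicates 1 to 3 and 0.435, 0.469 and 0.512 in WT replicates 1 to 3. Reads of Kit per read of Calb1, a calcium-binding protein gene of Purkinje cells, were 0.207, 0.202 and 0.197 in KO and 0.313, 0.274 and 0.306 in WT. In contrast, reads of Gad1 per read of Calb1 were 0.547, 0.592 and 0.547 in KO and 0.719, 0.585 and 0.598 in WT, with overlap. Slc6a5 per read of Slc32a1 was also mixed, at 0.582, 0.611 and 0.659 in KO and 0.489, 0.632 and 0.643 in WT. In CPM, Kit itself overlapped between genotypes. Every KO library lay above every WT library for the denominators Gad1 (log2 0.19, SE 0.07) and Calb1 (log2 0.36, SE 0.08). The part of each gene in the ratios of Kit was not tested.

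Other genes of GABA and glycine handling were also measured. Of 22 genes for uptake, breakdown, cofactors, chloride transport and inhibitory synapses, 8 rose, 0 fell and 14 did not pass, with a median of 0.20, beside 6.43% higher and a median of −0.01 over all tested genes. Of the 22, 16 had positive and 6 negative values, and at an unadjusted p under 0.05 by edgeR 15 were higher and 2 lower. Glra1, a glycine receptor subunit, was at 82.1 ± 1.62 CPM in KO and 61.5 ± 6.15 CPM in WT (SD, n = 3 each; log2 0.43, SE 0.08; adjusted p = 0.00539, edgeR). It passed with any 1 library left out. Nlgn2, the adhesion protein of inhibitory synapses (0.31, SE 0.07), Slc12a5, the neuronal chloride exporter (0.32, SE 0.09), Aldh5a1, which ends GABA breakdown (0.23, SE 0.07), and Slc6a9, the glycine transporter found mainly on glia (0.21, SE 0.06), rose too. Among the abundant genes that did not pass were the GABA transporter Slc6a11 (0.36, SE 0.12) and the GABA transaminase Abat (0.17, SE 0.07). Without KO replicates 1, 2 and 3 the number past the threshold was 2, 2 and 3, without WT replicate 2 it was 3, and Slc6a11 passed without WT replicate 1 (0.51). With the read assignment covariate 2 of the 22 passed, Glra1 (0.58) among them, and Slc12a5 was at 0.045, Aldh5a1 at 0.091 and Slc6a9 at 0.12.

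Of 15 factors of the GABAergic lineage, 13 passed the filter on low counts. Among all tested genes 6.43% rose, and of these 13 factors 1 did. It was Kirrel2, an adhesion protein of the nephrin family known from GABAergic progenitors of the mouse embryo, with 335, 335 and 243 reads in KO replicates 1 to 3 and 62, 78 and 17 reads in WT replicates 1 to 3. Its level was 7.67 ± 1.57 CPM in KO and 2.28 ± 0.432 CPM in WT (SD, n = 3 each; log2 1.81, SE 0.20; adjusted p = 3.88e-04, edgeR). Ptf1a, the factor that starts the GABAergic lineage, had 2 reads in the 3 KO libraries and 0 in the 3 WT libraries and was not tested. Tfap2b, a factor of interneurons (−0.05, SE 0.12), Lhx1, of Purkinje cells and other neurons (0.32, SE 0.12), and Olig2, best known from oligodendrocytes and also from early precursors (0.08, SE 0.09), did not pass. Without WT replicate 3, Lhx1 was at 0.42 and passed, and 3 genes of the list did.

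Other genes that tell interneuron subtypes apart had values of both signs: of 10, 1 rose, 2 fell and 7 did not pass (median 0.13). Over all tested genes 6.43% passed as higher and 10.2% as lower. Lgi2, a secreted synaptic protein enriched in Golgi cells, was at 58.2 ± 2.04 CPM in KO and 46.3 ± 2.39 CPM in WT (log2 0.32, SE 0.07) and passed with any 1 library left out. Ptprk, a receptor phosphatase, was at 44.6 ± 0.845 CPM in KO and 59.5 ± 8.002 CPM in WT and fell by 0.40 on the log2 scale (SE 0.09). Sorcs3, a sorting receptor of molecular layer interneurons, was at 27.7 ± 0.882 CPM in KO and 33.8 ± 1.33 CPM in WT and fell by 0.29 (SE 0.07; SD, n = 3 each). Without KO replicate 2 (−0.39) or KO replicate 3 (−0.39) Ptprk did not pass, and without KO replicate 1 (−0.28), KO replicate 2 (−0.31), KO replicate 3 (−0.26) or WT replicate 1 (−0.25) Sorcs3 did not. Pvalb (0.13, SE 0.09), Cdh22 (0.12, SE 0.09) and Prkcd (−0.03, SE 0.08) did not pass with all libraries.

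**Figure D4:**
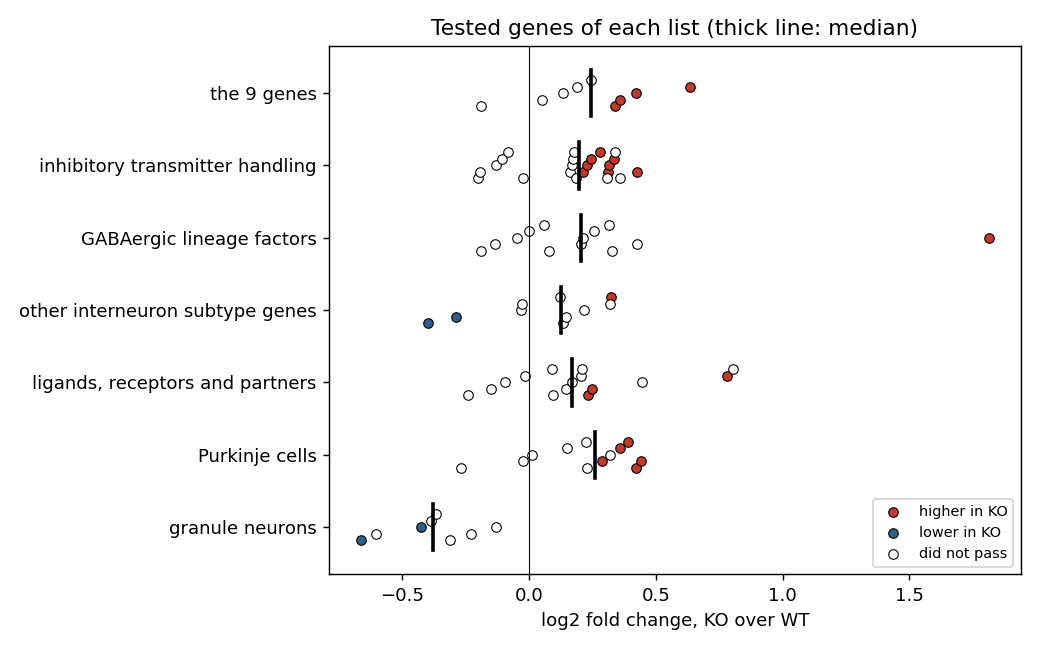
Log2 fold change (x axis, KO over WT) of each tested gene of the 9 and of 6 further lists; filled red points rose, filled blue points fell, open points did not pass, and thick lines are medians. The medians are 0.24 for the 9 genes and 0.26 for Purkinje cells, against −0.38 for granule neurons; Kirrel2 stands alone at 1.81.

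Receptors, ligands and relatives of the 9 genes were measured next. Of 17, 15 passed the filter, 3 rose, 0 fell and 12 did not pass (median 0.17). The share called in either direction was near the 16.7% of all tested genes, whereas 6.43% of all tested genes passed as higher. At an unadjusted p under 0.05 by edgeR, 3 genes of this list were higher and 2 lower. Npy1r, a receptor of neuropeptide Y, was at 9.03 ± 1.36 CPM in KO and 4.92 ± 1.66 CPM in WT (SD, n = 3 each; log2 0.78, SE 0.20; adjusted p = 0.0266, edgeR). It lost its call without KO replicate 2 (0.66), KO replicate 3 (0.83) or WT replicate 2 (0.64). Nxph4, a relative of Nxph1 (0.25, SE 0.07), and Nrxn2, a neurexin (0.23, SE 0.07), rose, and each kept its call among the single omissions only without WT replicate 3. Kitl, the Kit ligand made by Purkinje cells, was at 119 ± 15.7 CPM in KO and 111 ± 6.48 CPM in WT and did not pass (0.10, SE 0.09), nor did the neurexin Nrxn3 (−0.15, SE 0.06). The list had 1 gene past the threshold without KO replicate 1, 0 without KO replicate 2, KO replicate 3 or WT replicate 2 (where 5, 3 and 4 had an unadjusted p under 0.05 by edgeR), 2 without WT replicate 1 and 3 without WT replicate 3.

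Markers of neighbouring cell types were measured beside these genes, where 6.43% of all tested genes passed as higher and 10.2% as lower. Of 12 Purkinje cell genes, 5 rose (Calb1, Rgs8, Dner, Aldoc and Slc1a6) and 0 fell, with a median of 0.26 and with 5 higher and 1 lower at an unadjusted p under 0.05 by edgeR. They summed to 6112 to 7484 CPM in KO and 5290 to 6196 CPM in WT. The most abundant were Itpr1 (0.23), Aldoc (0.29) and Car8 (−0.27). Of 8 granule neuron genes, Gabra6 (−0.66) and Reln (−0.42) fell and 0 rose, with 0 higher and 5 lower at an unadjusted p under 0.05 by edgeR. The most abundant, Fat2 (−0.60), Zic1 (−0.37) and Cbln3 (−0.23), did not pass, and the sum was 1530 to 2097 CPM in KO and 2015 to 2545 CPM in WT. Of 5 genes of unipolar brush cells, Eomes fell (−0.78), Calb2 (0.13) and Plcb4 (0.06) did not pass, and the sum was 554 to 635 CPM in KO and 510 to 582 CPM in WT. Forebrain neuron genes, 6 of 9 under the filter, summed to 6.15 to 9.11 CPM in KO and 7.38 to 9.76 CPM in WT. The part of Purkinje and granule cell markers in the values of the 9 genes was not tested.

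The genes whose log2 CPM over the 6 libraries correlated best with a member, among 11479 genes of at least 5 CPM on average, are given as descriptions. They were Rcan3 for Gad1 (Pearson r 0.996), Ypel3 for Gad2 (0.998), Ank for Slc32a1 (0.999), Fjx1 for Slc6a5 (0.993), Dnal4 for Npy (0.985), Uevld for Sst (0.987), Ryr1 for Kit (0.995), Cyth3 for Pax2 (0.989) and Bmp2 for Nxph1 (0.993). With so few libraries such values are common: 55 (Sst) to 1452 (Slc32a1) genes had an r above 0.9 with a member.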

How the data were processed

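Raw counts of reads per gene were deposited for 3 KO and 3 WT libraries of cerebellum at postnatal day 18. Trimmomatic, STAR and mm10 are named, per the submitters' processing notes. The versions, annotation, strandedness and batches were not given in the sources used here. The authors' files hold counts without regard to strand and for each strand; the fourth column, the strand on which nearly all reads of these genes lie, was used. The 4 summary lines, among them reads outside genes (17.1% to 38.5% of reads), entered neither library sizes nor tests. Reads with several alignments have their own summary line in the deposited files and were not used.

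The filter filterByExpr kept 15519 of 24411 genes, including all 9 members. KO was compared with WT by edgeR 4.0.16 (R 4.3.3) with TMM scaling, robust glmQLFit and glmQLFTest, two-sided, p-values adjusted by Benjamini and Hochberg's method over every tested gene, and a threshold of 0.05. Fold changes are KO over WT, and each SE is the size of the log2 value over the root of its F statistic. CPM use TMM-scaled library sizes, and log2 CPM a prior count of 2. In WT replicate 3, 3 reads equal 0.465 CPM, and in the other libraries at most 0.0928 CPM. On simulated counts for KO over WT, 97.5% of 200 genes changed 2 fold were recovered among 15422 genes. Beside these 195 true calls, 23 calls at the threshold of 0.05 were false. Recovery of smaller fold changes, such as those of the 9 members, was not tested. Alternatives were DESeq2 size factors, DESeq2 1.42.0, limma-voom 3.58.1 with quality weights, no filter, counts without regard to strand, Rn45s left out, a replicate block, a read assignment covariate (log2 of reads outside genes over reads of all genes but Rn45s) and leaving out each library.

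The members, lists, tests and alternatives were chosen with earlier results of these data known. Text names all members, up to 6 passing and 3 abundant non-passing genes of each of 4 gene lists, abundant genes of the marker lists, and the best correlated gene of each member; other marker genes named were chosen after their values were seen, and some genes that the rule names are not reported here. Gabra6, Cbln3, Zic1, Pcp2 and Calb1 stand on 2 lists. Positions and exon lengths are from GENCODE M21 (GRCm38, the assembly of mm10), and start regions from RefSeq (GRCm38.p6), with 13 regions for the 9 genes.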

Additional observations from a re-analysis of the deposited data

Results flagged for a closer look

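Nxph1 had reads on the strand opposite to the gene in KO only, a column the comparisons do not use. There were 3 such reads in each of the 3 KO libraries, 9 of 3975 reads of both strands (0.226%; exact 95% interval 0.104% to 0.429%, which covers counting error only). The 3 WT libraries had 0 such reads beside 2281 on the gene's strand, which allows a share of up to 0.132%. Of these 2281 reads, only 165 were from WT replicate 3. Nxph1 was picked because, alone among the 9 genes, its opposite-strand share was higher in every KO library than in any WT library. How many of all genes show this was not counted. Over all 9 genes the opposite strand held 0.200% ± 0.0446 of reads in KO and 0.200% ± 0.0956 in WT (SD, n = 3 each).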

How the results depend on the processing

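Of 126 values of the 9 genes under 14 alternatives, 99 kept direction and side of the threshold, 21 kept direction but no longer passed, 3 newly passed and 3 turned sign; for 22 other named genes, 242 of 308 kept both, 52 no longer passed, 6 newly passed and 8 turned sign. The signs that turned were those of Sst without KO replicate 2 (−0.12) and WT replicate 2 (−0.20), Nxph1 with the read assignment covariate (−0.10), Abat (−0.0047), Cdh22 (−0.020), Olig2 (−0.091) and Tfap2b (0.32) with the covariate, Tfap2b with limma-voom (0.032) and without WT replicate 3 (0.088), and Prkcd without KO replicate 2 and WT replicate 2. With single libraries left out, Sst ranged from −0.20 to 0.22, Tfap2b from −0.17 to 0.088 and Prkcd from −0.082 to 0.048. The cause was not tested.

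With the covariate in edgeR, 0 of the 9 genes passed (3 at an unadjusted p under 0.05), and 2 transmitter handling, 2 lineage, 0 subtype and 0 partner genes did, with 561 higher and 861 lower among all genes. Limma-voom called 6 of the 9 genes, 14 handling, 3 lineage and 5 subtype genes and 1725 higher genes in all. Leaving out each library in turn gave 0 to 4 of the 9 genes higher and 0 lower, 2 to 11 handling, 1 to 3 lineage, 1 to 4 subtype and 0 to 3 partner genes, and 245 to 1623 higher and 796 to 2096 lower genes.

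Replicate numbers are shared by the titles only: same-numbered libraries had correlations of deviations of −0.18, −0.14 and −0.10, and no library correlated best with the one of its own number. With a replicate block, 2 of the 9 genes passed (Slc6a5 at 0.43 and Npy at 0.64), with 3 handling genes, 0 partner genes, and 252 higher and 821 lower genes in all. Depth limits Npy and Pax2 most, with 39 and 75 reads in WT replicate 3.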
